A study of Mus musculus with 9 samples.

Results

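Cartilage matrix genes were followed in RNA sequencing of 9 libraries labelled as mouse ear dermis. The set was a list of 35 gene symbols, namely cartilage collagens, matrix proteins, chondrocyte transcription factors and genes for sulphation. They were chosen by name and function, with earlier results of these data known, so counts set beside all genes are descriptions. All 35 were found among the 52550 genes of the count table, and 34 passed the filter on low counts that left 22430 genes. The mice were wild-type C57BL/6 animals (C57BL/6J in the methods) at an age of 8 weeks. VAS+H2O was the control, in which vaseline was put on the ear for 5 days and water was given by gavage for 10 days. IMQ+H2O was the model of psoriasis-like dermatitis, with imiquimod cream for 5 days and water by gavage for 10 days. IMQ+XYF had the same cream and, by gavage for 10 days, XYF (Xiao-Yin-Fang), a herbal decoction, at 23.3 mg/g. Each group had 3 libraries. RNA was prepared, by the study's methods, from the dermal sheets of 2 mice, without saying whether each library was such a pool, so the p-values here measure the spread between these libraries, which may in part be technical.

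Cartilage is a matrix with few cells, the chondrocytes. Its fibrils are made of collagen II with collagen XI inside and collagen IX on the surface, and the space between them is filled by aggrecan, a proteoglycan whose sulphated sugar chains hold water. The transcription factor SOX9, with its partners SOX5 and SOX6, switches these genes on. The external ear holds a plate of elastic cartilage between its sheets of skin, so a dermal ear sheet can carry cartilage RNA. In bulk RNA, fewer chondrocytes, less RNA per chondrocyte and less cartilage left on the dissected sheet cannot be told apart. The labels do not say how the sheets were dissected, and the amount of cartilage on each was not tested.

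The 27 genes with an entry in the RefSeq promoter table (GRCm38.p6; none for Clec3a, Col2a1, Col9a3, Comp, Prg4, Scrg1, Sox9 and Xylt1) gave 38 promoter windows, each from 250 bases before to 50 bases after a transcription start. A GC box (GGGCGG, searched on both strands) was found in 18 of the 27 genes and in 19 of the 38 windows, beside 35.7% of 32851 windows of all genes. The core SOX motif ACAAAG was found in 8 windows of 4 genes (18.7% of all windows), the SOX motif ACAAT in 9 windows of 6 genes (31.0%), and the TATA box TATAAA in 5 windows of 4 genes (13.6%). Overlaps between motifs were allowed. The median GC content was 55.7% in the windows of the cartilage genes and 52.7% in all windows. The windows printed are those of Acan, which followed the common course of the cartilage genes most closely, of Chad and Cytl1, which were highest in 1 control library, of Col11a2, a collagen gene of the common course, of Cilp, which departed from it, and of Matn1, which had no count. All 6 windows are on the plus strand, at chr7:79052976-79053275, chr11:94564797-94565096, chr5:37735269-37735568, chr17:34038888-34039187, chr9:65264930-65265229 and chr4:130944135-130944434, and capitals mark a GC box or a TATA box on either strand.
Acan: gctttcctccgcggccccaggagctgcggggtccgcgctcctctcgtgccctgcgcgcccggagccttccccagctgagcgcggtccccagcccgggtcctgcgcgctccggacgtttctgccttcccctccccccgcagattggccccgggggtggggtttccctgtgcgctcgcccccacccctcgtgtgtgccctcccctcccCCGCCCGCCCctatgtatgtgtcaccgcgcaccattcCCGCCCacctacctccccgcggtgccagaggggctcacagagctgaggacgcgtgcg
Chad: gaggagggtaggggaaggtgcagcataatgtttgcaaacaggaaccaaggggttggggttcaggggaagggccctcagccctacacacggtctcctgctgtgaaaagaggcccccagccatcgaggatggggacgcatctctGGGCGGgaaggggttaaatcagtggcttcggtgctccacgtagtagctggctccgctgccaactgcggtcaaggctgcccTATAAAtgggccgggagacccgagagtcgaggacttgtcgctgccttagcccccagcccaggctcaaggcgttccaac
Cytl1: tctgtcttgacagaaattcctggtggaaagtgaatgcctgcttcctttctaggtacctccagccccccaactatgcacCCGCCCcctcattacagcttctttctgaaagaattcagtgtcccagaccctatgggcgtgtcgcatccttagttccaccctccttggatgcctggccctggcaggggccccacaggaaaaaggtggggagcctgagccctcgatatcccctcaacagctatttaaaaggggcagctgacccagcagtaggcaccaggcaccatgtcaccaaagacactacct
Col11a2: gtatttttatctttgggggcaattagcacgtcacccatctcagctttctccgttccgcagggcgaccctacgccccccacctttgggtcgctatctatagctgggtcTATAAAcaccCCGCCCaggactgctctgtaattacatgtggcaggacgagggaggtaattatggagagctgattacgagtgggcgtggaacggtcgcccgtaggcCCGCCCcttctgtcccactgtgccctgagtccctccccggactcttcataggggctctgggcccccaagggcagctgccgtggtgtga
Cilp: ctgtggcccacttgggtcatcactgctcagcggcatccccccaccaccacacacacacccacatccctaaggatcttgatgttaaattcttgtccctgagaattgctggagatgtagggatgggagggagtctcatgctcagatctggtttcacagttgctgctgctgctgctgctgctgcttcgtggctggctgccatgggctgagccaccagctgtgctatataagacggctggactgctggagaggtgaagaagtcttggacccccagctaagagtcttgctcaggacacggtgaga
Matn1: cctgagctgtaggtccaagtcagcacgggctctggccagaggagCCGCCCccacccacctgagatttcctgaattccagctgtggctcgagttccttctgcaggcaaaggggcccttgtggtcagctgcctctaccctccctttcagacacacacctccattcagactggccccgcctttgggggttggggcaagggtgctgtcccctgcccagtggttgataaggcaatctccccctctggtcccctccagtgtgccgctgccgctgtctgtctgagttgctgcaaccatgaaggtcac
The Acan window had 74.0% GC and overlapping GC boxes, while the Cilp window had none of the 4 motifs. The Matn1 window held a GC box although the gene had no count in any library.

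Total counts ran from 28756305 to 79836881 per library, and a gene with no count was below a floor of 3 counts, or 0.0376 to 0.104 CPM, for counting error only. Levels are given as CPM, read counts relative to the library total, scaled by TMM factors. The 35 genes took 1.25%, 0.534% and 0.578% of the counts of VAS+H2O replicates 1, 2 and 3. In IMQ+H2O the share was 0.426%, 0.276% and 0.342%, below that of each control library. In IMQ+XYF it was 0.406%, 1.01% and 0.547%. The exact 95% Clopper-Pearson interval, for counting error only, was 1.2479% to 1.2548% in VAS+H2O replicate 1. Of the 34 tested genes, VAS+H2O replicate 1 was the highest control library for 28, IMQ+H2O replicate 2 was the lowest of all 9 libraries for 26, and IMQ+XYF replicate 2 was the highest of its group for 29 and IMQ+XYF replicate 1 the lowest for 29. The order of libraries was not counted over all tested genes, so these numbers only describe the 34.

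Per kilobase of exon, the most abundant of the 35 genes in the control libraries were Cytl1 at 1726 ± 1688 CPM per kb (mean ± SD, n = 3), Chad at 638 ± 465 and Fmod at 411 ± 105. They were followed by Cilp at 112 ± 18.2, Acan at 80.8 ± 21.2, Comp at 69.3 ± 40.3 and Sox9 at 48.8 ± 5.90 CPM per kb. Col2a1 stood at 13.0 ± 3.58 CPM per kb. The SD of Cytl1 was nearly as large as its mean, and VAS+H2O replicate 1 was the high library for both Cytl1 and Chad. Epyc at 0.874 ± 0.463 and Scrg1 at 0.508 ± 0.0769 CPM per kb were the lowest of the tested genes. In the control libraries Epyc had 42, 83 and 253 counts, and Scrg1 had 13, 15 and 25. Matn1, which encodes a matrilin of cartilage, had no count in any library. Whether this came from the RNA or from the read counting was not tested. Among 6 defining chondrocyte genes, Col2a1, Acan, Col9a1, Hapln1 and Sox9 were thus counted in all 9 libraries and Matn1 in none.

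**Figure D1:**
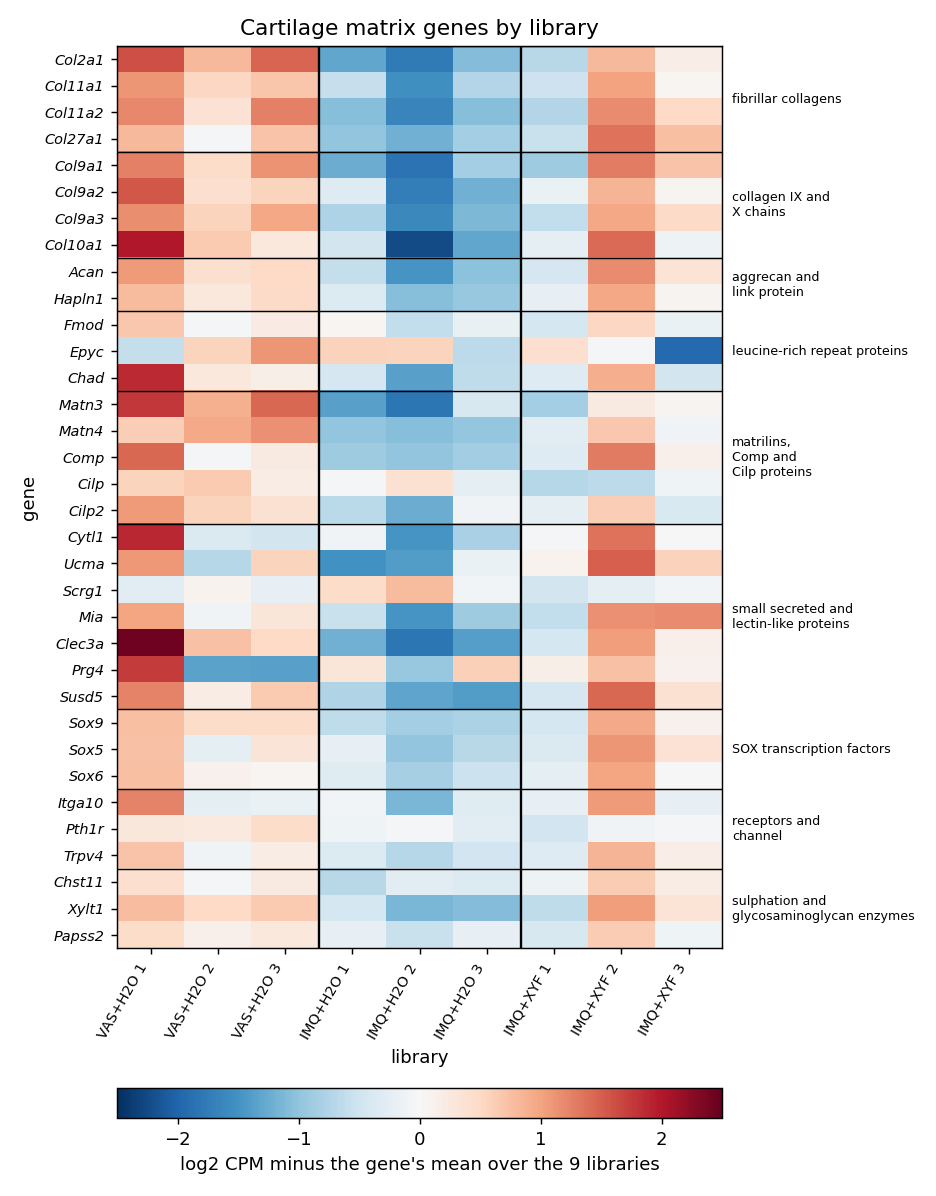
Level of each of the 34 tested cartilage genes (rows, grouped by role) in each library (columns), as log2 CPM minus the gene's mean over the 9 libraries; red is above and blue below that mean. Most rows were red in VAS+H2O, blue in IMQ+H2O, and pale blue, red and near white in IMQ+XYF replicates 1, 2 and 3.

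IMQ+H2O was set against VAS+H2O to compare ears with and without imiquimod. Below, a difference by imiquimod means one in this comparison, and its cause was not tested. Cartilage genes were lower in the imiquimod libraries: 33 of the 34 tested genes had a log2 fold change below 0 (52.3% of all tested genes did), and the median was -1.44, beside -0.023 over all genes. The SE of the log2 fold change follows it below after ±. By edgeR's quasi-likelihood test, a gene was called at a Benjamini-Hochberg adjusted p of 0.05 or lower over all 22430 genes and an absolute log2 fold change of 1 or higher. The 4 called genes were Col2a1, Col9a3, Matn3 and Matn4, all lower, beside 0.348% of all tested genes called lower and 0.646% called higher. At an unadjusted p under 0.05, 27 genes were lower and none was higher (by this rule 10.8% of all genes were lower and 10.1% higher), and for 25 the imiquimod libraries all lay below the control libraries (16.5%).

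Clec3a and Col11a2 lay just above the limit, both at an edgeR adjusted p of 0.0540, and the number of calls depended on the fit. DESeq2's Wald test called 19 of the genes lower at the same limits, beside 1.71% of its genes. An edgeR fit of the compared groups alone called 14, beside 228 of 20854 genes called lower. Without IMQ+XYF replicate 1 or replicate 2, libraries outside this comparison that enter the shared estimate of the spread, 13 were called. Over all genes, 163 of 22976 and 191 of 22893 were then called lower. Without VAS+H2O replicate 1 there was 1 call, Matn4, beside 46 of 23427 genes called lower. Without any other 1 library of the compared groups there was none, beside 2 to 14 genes called lower. The median log2 fold change was -1.07 without VAS+H2O replicate 1 and -1.68 without VAS+H2O replicate 2, and the count at an unadjusted p under 0.05 was 20 and 28.

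All 8 collagen genes had log2 fold changes below 0 and an unadjusted p under 0.05 in IMQ+H2O, with a median of -1.96 for the fibrillar collagens and -2.14 for collagens IX and X. Col2a1 (chr15:97975602-98004695, minus strand), the main fibril collagen of cartilage, measured 147, 83.2 and 131 CPM in VAS+H2O, 19.4, 13.9 and 22.3 CPM in IMQ+H2O and 29.3, 83.9 and 53.3 CPM in IMQ+XYF. The imiquimod libraries all lay under the lowest control library, and Col2a1 fell 6.48-fold (log2 fold change -2.70 ± 0.39, edgeR adjusted p = 0.0247). Col9a3 (chr2:180597790-180622189), a chain of collagen IX, measured 152, 99.3 and 132 CPM in VAS+H2O, 39.6, 22.2 and 31.2 CPM in IMQ+H2O and 44.5, 132 and 94.9 CPM in IMQ+XYF. It fell 4.13-fold (log2 fold change -2.05 ± 0.38, edgeR adjusted p = 0.0436), again without overlap. The other fibrillar collagens and collagen IX chains had log2 fold changes of -1.68 for Col11a1, -2.23 for Col11a2, -1.54 for Col27a1, -2.24 for Col9a1 and -1.91 for Col9a2, with edgeR adjusted p from 0.0540 to 0.100 and none called. Col10a1, the collagen of hypertrophic chondrocytes, measured 44.4, 17.4 and 13.3 CPM in VAS+H2O, 8.05, 2.30 and 4.46 CPM in IMQ+H2O and 9.40, 29.6 and 10.1 CPM in IMQ+XYF. Its log2 fold change of -2.35 was -1.65 without VAS+H2O replicate 1, which held more than the other control libraries together.

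Acan (chr7:79053483-79115099), which encodes aggrecan, measured 786, 495 and 529 CPM in VAS+H2O, 247, 134 and 184 CPM in IMQ+H2O and 279, 847 and 472 CPM in IMQ+XYF. All imiquimod libraries lay below the controls, at a log2 fold change of -1.68 ± 0.40 that missed the limit (edgeR adjusted p = 0.0753). Hapln1, the link protein that ties aggrecan to hyaluronan, had 72.1, 50.0 and 58.1 CPM in VAS+H2O against 33.1, 19.8 and 21.6 CPM in IMQ+H2O, a log2 fold change of -1.28 (edgeR adjusted p = 0.0855). The leucine-rich repeat proteins, which bind collagen fibrils, were less alike, with 1 of 3, Chad, at an unadjusted p under 0.05. Chad, chondroadherin, measured 1974, 646 and 595 CPM in VAS+H2O, 401, 209.6 and 345 CPM in IMQ+H2O and 431, 1017 and 393 CPM in IMQ+XYF. VAS+H2O replicate 1 held over 3 times the level of the other controls, and the log2 fold change of -1.75 was -0.97 without it. Fmod, fibromodulin, overlapped between the groups, at 1744, 1067 and 1267 CPM in VAS+H2O and 1142, 721 and 972 CPM in IMQ+H2O (log2 fold change -0.52, and -0.31 without VAS+H2O replicate 1).

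Matrilins link collagen fibrils to other matrix proteins. With Comp and the Cilp proteins they had a median log2 fold change of -1.60, and 4 of the 5 tested were at an unadjusted p under 0.05. Matn4 (chr2:164389393-164405160, minus strand) measured 17.3, 21.7 and 25.0 CPM in VAS+H2O, 5.65, 5.36 and 5.75 CPM in IMQ+H2O and 9.22, 18.0 and 10.6 CPM in IMQ+XYF. The imiquimod libraries differed from each other by under 0.5 CPM, the lowest control library was at 17.3 CPM, and Matn4 fell 3.82-fold (log2 fold change -1.93 ± 0.26, edgeR adjusted p = 0.0201), the lowest adjusted p of the 34 genes. Unlike most of the others, it was lowest in VAS+H2O replicate 1 among the controls. Matn3 (chr12:8947929-8972028) measured 11.0, 5.94 and 8.78 CPM in VAS+H2O, 1.24, 0.897 and 2.44 CPM in IMQ+H2O and 1.78, 3.76 and 3.39 CPM in IMQ+XYF and fell 5.57-fold (log2 fold change -2.48 ± 0.44, edgeR adjusted p = 0.0407). Comp, cartilage oligomeric matrix protein, had a log2 fold change of -1.60, and -1.02 without VAS+H2O replicate 1. Cilp2 had -1.29 without overlap between groups, while its relative Cilp had -0.43 with overlap (-0.29 without IMQ+H2O replicate 3), and neither was called.

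The 7 small secreted proteins had a median log2 fold change of -1.41, and 4 were at an unadjusted p under 0.05. Clec3a, a lectin-like protein of cartilage, measured 30.4, 9.39 and 7.90 CPM in VAS+H2O, 2.41, 1.58 and 2.12 CPM in IMQ+H2O and 4.10, 11.6 and 6.17 CPM in IMQ+XYF. It had the lowest log2 fold change of all 34 genes (-2.96 ± 0.60), and -2.09 without VAS+H2O replicate 1. Cytl1, a cytokine-like protein made by chondrocytes, measured 3880.3, 823 and 764 CPM in VAS+H2O, 992, 379 and 603 CPM in IMQ+H2O and 1041, 2713 and 1046 CPM in IMQ+XYF. The groups overlapped, and the log2 fold change of -1.47 was -0.28 without VAS+H2O replicate 1. Susd5, a sushi-domain protein, had -1.89, Mia, a secreted protein of cartilage and melanoma, -1.41, and Ucma, a vitamin K-dependent protein, -1.37 on the log2 scale, with none called. By annotation, 41.2% of the exon bases of Mia were shared with another gene model on the same strand, so its counts are uncertain.

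The SOX transcription factors had a median log2 fold change of -0.92, and all 3 were at an unadjusted p under 0.05. Sox9 (chr11:112782224-112787760) measured 230.0, 188 and 188 CPM in VAS+H2O, 87.6, 75.4 and 78.9 CPM in IMQ+H2O and 101, 264 and 147 CPM in IMQ+XYF. The groups did not overlap, and its log2 fold change was -1.32 ± 0.30 (edgeR adjusted p = 0.0689, not called). Sox5 had -0.92 with overlap and Sox6 -0.89 without. The 3 genes for sulphated sugar chains had a median of -0.63 and were all at an unadjusted p under 0.05. Xylt1, which starts the chains, had 159, 132 and 147 CPM in VAS+H2O and 68.6, 42.0 and 43.9 CPM in IMQ+H2O, a log2 fold change of -1.51. Chst11, a chondroitin sulphotransferase, had -0.63 and Papss2, which makes the sulphate donor, -0.60, both without overlap and neither called. The receptors and channel were Itga10, a collagen-binding integrin chain (-0.89, and -0.25 without VAS+H2O replicate 1), Trpv4, a calcium channel (-0.81), and Pth1r, the receptor for parathyroid hormone and its related protein (-0.47). None of the 3 was called. Of the exon bases of Itga10, 33.5% were shared with another gene model on the same strand, which leaves its counts uncertain.

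**Figure D2:**
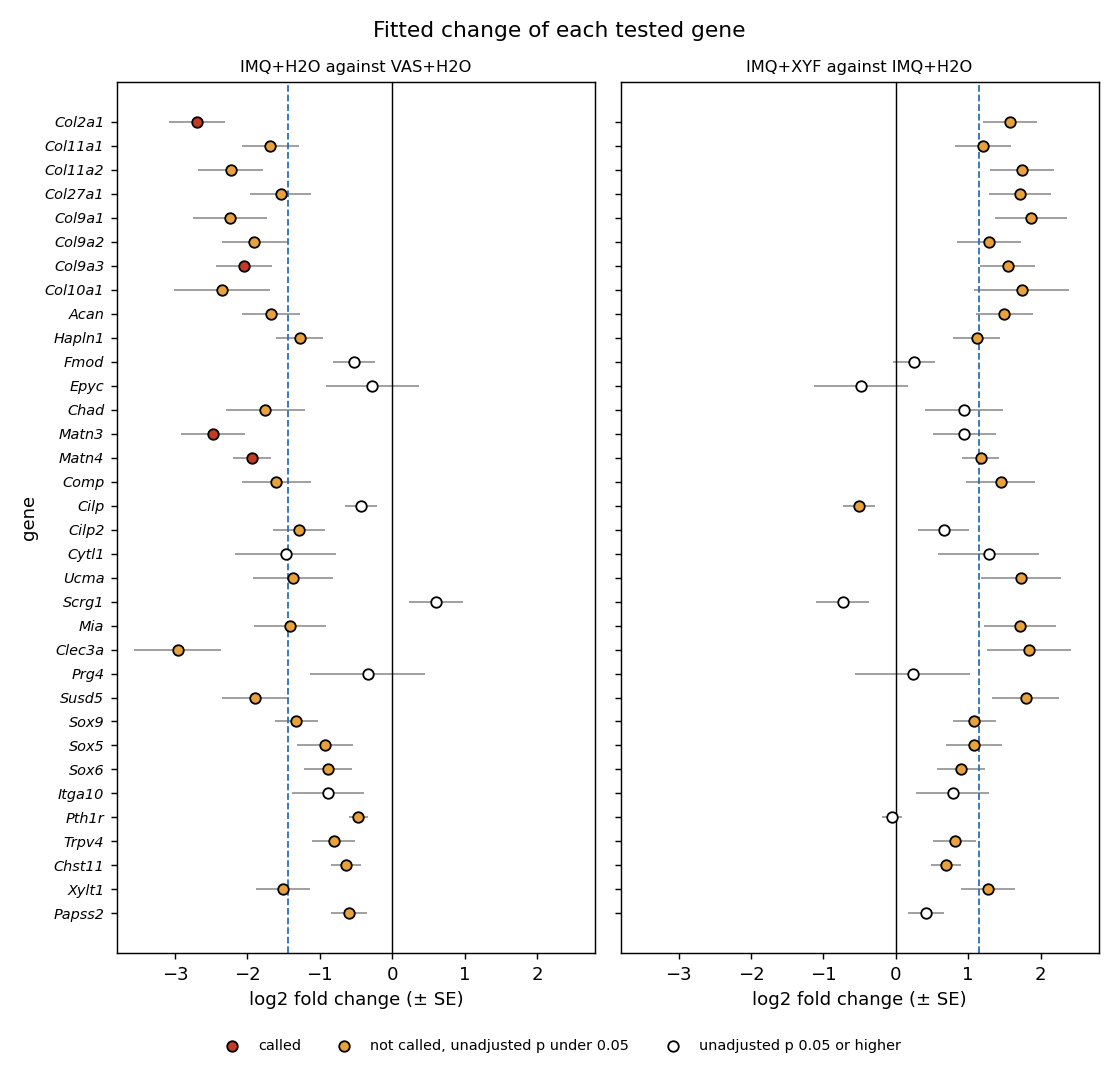
Fitted log2 fold change (points) with its SE (bars) for the 34 tested genes, for IMQ+H2O against VAS+H2O (left) and IMQ+XYF against IMQ+H2O (right), with the dashed line at the median of the genes. The left median was -1.44 and the right 1.14; red points were called by edgeR, which were 4 on the left and none on the right.

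IMQ+XYF was set against IMQ+H2O to compare imiquimod-treated ears with and without XYF. A difference by XYF likewise means one in this comparison, and its cause was not tested. The 2 comparisons share the IMQ+H2O libraries, which ties opposite signs to each other. No cartilage gene was called by edgeR (lowest adjusted p = 0.360), beside 0.00446% of all tested genes called higher. The log2 fold change was above 0 for 30 of the 34 genes (50.7% of all genes), with a median of 1.14 beside 0.0055 over all genes. At an unadjusted p under 0.05, 22 genes were higher (6.35% of all genes) and 1, Cilp, was lower (5.39%). For 19 genes the IMQ+XYF libraries all lay above the IMQ+H2O libraries (9.22%). DESeq2's Wald test called 14 of the genes higher, beside 0.734% of its genes.

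The IMQ+XYF libraries were spread widely. The counts of genes outside the range of another group that follow were not made over all tested genes, so they are descriptions. Replicate 1 was below the lowest control library for 29 of the 34 genes and above the highest imiquimod library for 20. Replicate 3 was below the lowest control for 20 and above the highest imiquimod library for 25. Replicate 2 was above the highest imiquimod library for 30 genes and above the highest control for 14. Its level over that of replicate 1 was 4.51 for Col9a1, 3.77 for Col27a1, 3.75 for Col11a2, 3.04 for Acan and 2.61 for Sox9. Without replicate 2 the median log2 fold change was 0.71, and 14 in place of 23 genes were at an unadjusted p under 0.05 in either direction. Without replicate 1 the median was 1.37, and no gene was called by edgeR in either case.

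Among the collagens, Col27a1, a fibrillar collagen of cartilage, measured 521, 288 and 486 CPM in VAS+H2O, 151, 130.1 and 164 CPM in IMQ+H2O and 202, 760.2 and 503 CPM in IMQ+XYF. XYF replicates 2 and 3 were above the lowest control libraries, replicate 2 above all of them, and the log2 fold change against IMQ+H2O was 1.72 ± 0.43 (edgeR adjusted p = 0.363). Col9a1 measured 161, 93.6 and 147 CPM in VAS+H2O, 28.6, 18.9 and 37.6 CPM in IMQ+H2O and 36.5, 164 and 110.5 CPM in IMQ+XYF, and XYF replicate 1 lay within the imiquimod range. Its log2 fold change of 1.87 ± 0.50 was the highest of the 34 genes. Col2a1 had 1.58 ± 0.38 without overlap, although its highest XYF library, at 83.9 CPM, was only level with the lowest control library at 83.2 CPM. Col11a1 (1.20), Col11a2 (1.75), Col9a2 (1.29), Col9a3 (1.55) and Col10a1 (1.74) were likewise higher on the log2 scale, with no overlap and no call. Without XYF replicate 2, Col10a1 was at 1.02 and Col11a1 at 0.71.

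All 8 collagen genes were thus at an unadjusted p under 0.05, as were both Acan and Hapln1, all 3 SOX factors and 4 of the 7 small secreted proteins. Acan had 1.50 ± 0.40 and Hapln1 1.11. Matn4 had 1.17 ± 0.25, with all XYF libraries above the imiquimod libraries and the lowest unadjusted p of the 34 genes (0.00134 in the edgeR fit). Sox9 had 1.08, Sox5 1.08 and Sox6 0.90. Ucma, which measured 54.5, 15.8 and 37.8 CPM in VAS+H2O, 8.98, 9.72 and 23.02 CPM in IMQ+H2O and 27.5, 73.2 and 38.6 CPM in IMQ+XYF, had 1.73 ± 0.56, and all XYF libraries were above the imiquimod libraries. Susd5 had 1.79, Clec3a 1.84, Mia 1.72, Comp 1.45, Xylt1 1.27, Trpv4 0.81 and Chst11 0.69 on the log2 scale. Chad (0.95), Itga10 (0.79), Cytl1 (1.28), Cilp2 (0.66), Matn3 (0.95) and Papss2 (0.41) had an unadjusted p above 0.05, as did Fmod (0.25), Prg4 (0.23) and, below 0, Epyc (-0.48), Scrg1 (-0.73) and Pth1r. Without XYF replicate 2 the log2 fold change was 0.40 for Chad, 0.26 for Itga10, 0.69 for Cytl1, 0.30 for Cilp2 and 0.087 for Papss2. It was 0.65 for Sox9, 0.67 for Sox5, 0.46 for Sox6, 0.71 for Hapln1, 0.86 for Comp, 0.83 for Xylt1 and 0.47 for Trpv4 without that library. Matn3 was at 1.50 without IMQ+H2O replicate 3.

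**Figure D3:**
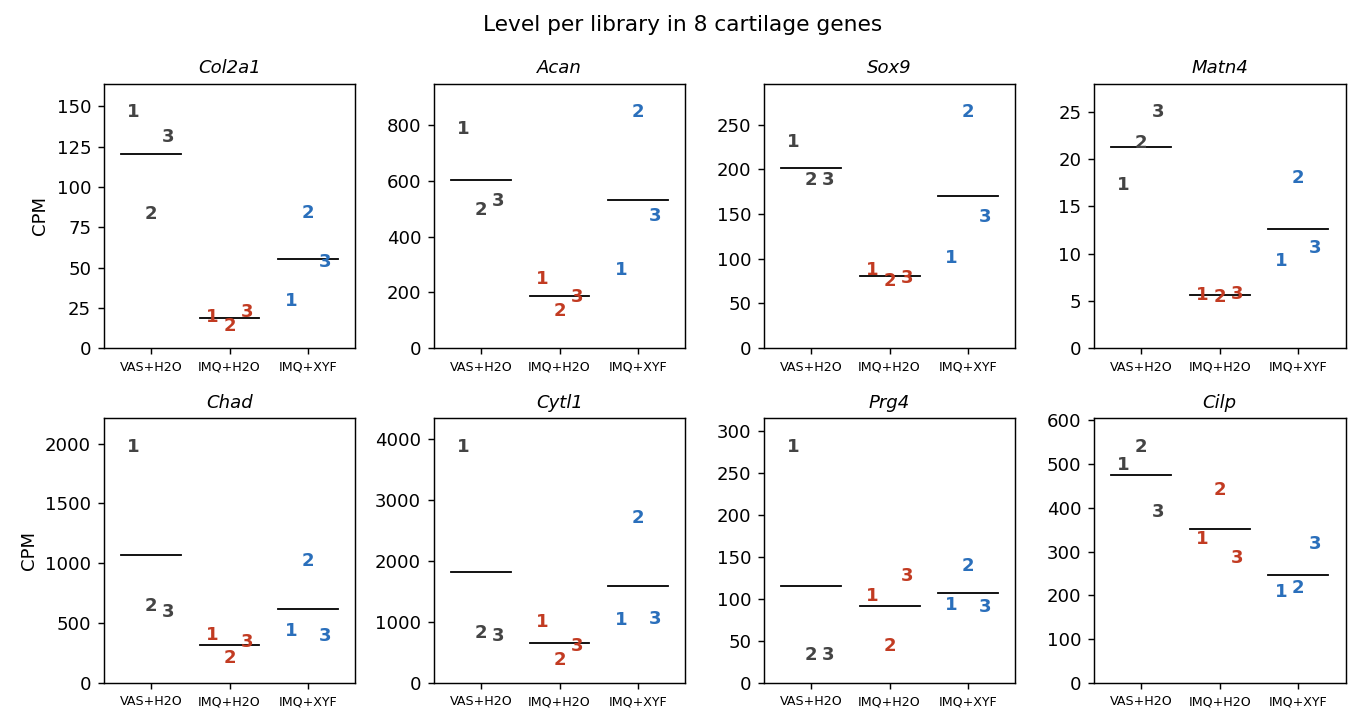
CPM of 8 cartilage genes in each library, where digits are replicate numbers, colours are groups and black lines are group means; each axis starts at 0. Imiquimod replicates sat together and low for Col2a1, Acan, Sox9 and Matn4, XYF replicate 2 was the highest of its group in all panels but Cilp, and VAS+H2O replicate 1 stood alone for Chad, Cytl1 and Prg4.

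The third comparison set IMQ+XYF against VAS+H2O, to see where the treated group stood beside the control. No cartilage gene was called by edgeR, beside 0.508% of all tested genes called lower and 0.695% called higher, and the median log2 fold change was -0.24 (-0.024 over all genes). DESeq2's Wald test called Col2a1 and Matn3 lower, beside 1.53% of its genes. At an unadjusted p under 0.05, 5 genes were lower (8.76% of all genes). They were Col2a1 (-1.12 ± 0.37), Matn3 (-1.53 ± 0.42), Matn4 (-0.76 ± 0.25), Cilp (-0.95 ± 0.22) and Pth1r (-0.52 ± 0.13). The libraries did not overlap for Matn3, Cilp and Pth1r (10.3% of all genes). For Col2a1, the treated mean was 55.5 ± 27.4 CPM against 120.3 ± 33.1 CPM in the control (SD, n = 3). Without XYF replicate 2, which had the highest cartilage RNA of its group, the median was -0.67. In that fit 2 genes, Col2a1 and Matn4, were called, both lower, beside 180 of 22893 genes called lower. Calls over all genes in both directions were 592, and 270 with all libraries. Without XYF replicate 1 the median was 0.0025.

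The genes moved together across libraries. Each gene's log2 CPM was correlated with the mean of the other 33 tested genes over the 9 libraries. All genes were read in the same libraries, with their differences in depth, group and tissue, so Pearson's r is a description. The value was 0.5 or higher for 30 genes, with the highest for Acan (0.985), Col11a1 (0.985), Susd5 (0.973), Hapln1 (0.972) and Sox9 (0.970). The 4 that departed were Prg4 (0.29), Cilp (0.09), Epyc (-0.19) and Scrg1 (-0.65). Without VAS+H2O replicate 1 the number was 5, with Pth1r (0.45) added, and in each of the other alternatives it was 4. Pth1r was nearest to the limit among the rest (0.56), followed by Ucma (0.80) and Cytl1 (0.83).

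Prg4 (chr1:150449412-150466165, minus strand), which encodes lubricin, the lubricant of joint surfaces, measured 281, 33.4 and 32.8 CPM in VAS+H2O, 103, 43.7 and 128 CPM in IMQ+H2O and 92.9, 139 and 90.4 CPM in IMQ+XYF. VAS+H2O replicate 1 was 8.49 times the mean of the other controls, and these were below all 6 libraries that received imiquimod. The log2 fold change of IMQ+H2O against VAS+H2O was -0.34 ± 0.79 and 1.46 without that library, so its direction rested on 1 library. Cilp (chr9:65265180-65280605), cartilage intermediate layer protein, measured 498, 539 and 389 CPM in VAS+H2O, 329, 441 and 286 CPM in IMQ+H2O and 208, 216 and 317 CPM in IMQ+XYF. It was lowest in XYF, where replicate 2, high in most cartilage genes, was as low as replicate 1. Its log2 fold change was -0.51 ± 0.22 against IMQ+H2O (unadjusted p = 0.0466, and a log2 fold change of -0.31 without IMQ+H2O replicate 2) and -0.95 ± 0.22 against VAS+H2O (edgeR adjusted p = 0.0693), which did not reach the limits.

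Epyc, epiphycan, a small proteoglycan of growth cartilage, stayed between 0.373 and 3.39 CPM, with a log2 fold change of -0.27 ± 0.64 by imiquimod that ranged from -0.62 to 0.17 as single libraries were left out. Of its exon bases 40.6% were shared with a gene on the other strand, so its low counts are uncertain. Scrg1, a small secreted protein linked to chondrocyte formation, stayed between 0.274 and 0.703 CPM, or 13 to 29 counts a library, and was the only tested gene above 0 by imiquimod (log2 fold change 0.60 ± 0.37, and 0.36 without IMQ+H2O replicate 2). Pth1r was 57.8, 56.0 and 64.8 CPM in VAS+H2O, 43.5, 46.2 and 39.6 CPM in IMQ+H2O and 33.9, 44.6 and 46.1 CPM in IMQ+XYF. It was thus below the controls in all 6 imiquimod-treated libraries, with a log2 fold change of -0.053 ± 0.13 between the latter groups.

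VAS+H2O replicate 1 was high in some cartilage genes far more than in others. Its level over the mean of the other control libraries was 4.89 for Cytl1, 3.51 for Clec3a, 3.18 for Chad, 2.89 for Col10a1, 2.68 for Itga10 and 2.505 for Comp. For Col2a1 it was 1.37, for Acan 1.53, for Sox9 1.23 and for Xylt1 1.14. The excess of cartilage RNA in that library was thus spread unequally over the genes. XYF replicate 2, the other high library, held Col27a1 at 1.76 times and Ucma at 2.03 times the control mean, but Col2a1 at 0.697 times and Matn3 at 0.439 times. These ratios compare single libraries and have no replicate check.

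**Figure D4:**
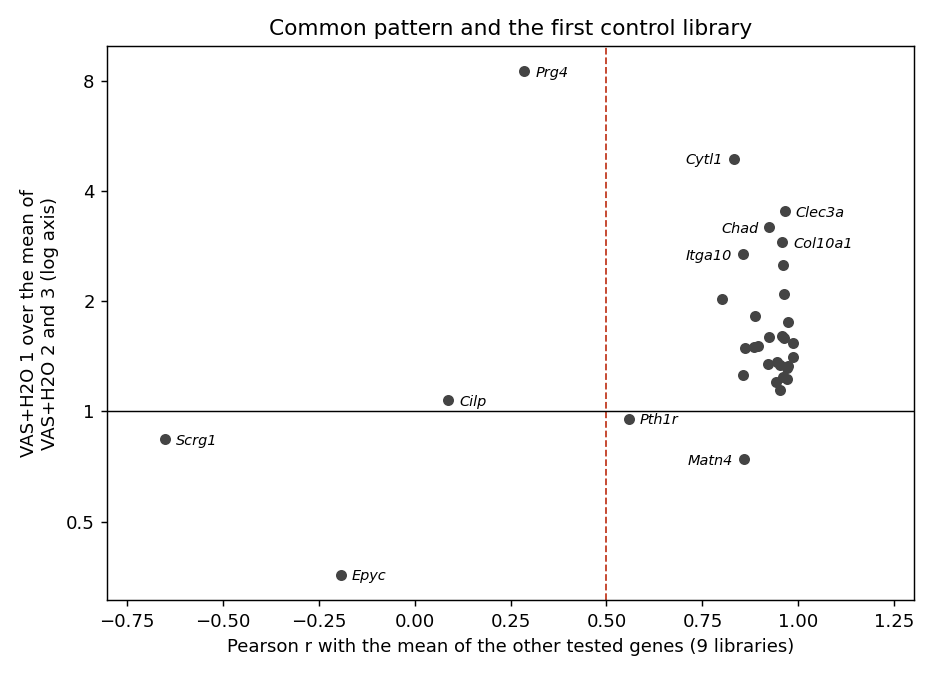
Each point is 1 of the 34 tested genes, with Pearson's r between its log2 CPM and the mean of the other tested genes over 9 libraries on the x axis, and its CPM in VAS+H2O replicate 1 over the mean of replicates 2 and 3 on a log y axis. Left of the dashed line at 0.5 lie Scrg1, Epyc, Cilp and Prg4, and Prg4 and Cytl1 have the highest ratios, 8.49 and 4.89.

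Outside the 35 genes, the 10 tested genes whose log2 CPM was most like that of Col2a1 over the 9 libraries were taken from 13643 candidates averaging 100 or more scaled counts, leaving out gene models named Gm or Rik. They included Prrc1, Col8a1, Rnf11, Rian, Pcyt1b, Tspyl1, Atrn, Csdc2 and Ecm2, with Pearson's r from 0.964 to 0.983. Of the cartilage genes themselves, 2 were as close to Col2a1 as the last of these, Col11a2 and Col9a3. Col8a1, a short-chain collagen of basement membranes, measured 1815, 1063 and 1359.5 CPM in VAS+H2O, 293, 144 and 242 CPM in IMQ+H2O and 323, 725 and 449 CPM in IMQ+XYF. It was called lower by imiquimod (log2 fold change -2.64 ± 0.37, edgeR adjusted p = 0.0240). Pcyt1b, a lipid synthesis enzyme, and Ecm2, a matrix protein, had log2 fold changes of -1.54 and -1.21. Prrc1, which had the highest r, had a small difference, with a log2 fold change of -0.36 by imiquimod.

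Other genes of the cartilage pathway were counted on lists that were likewise chosen by function, with earlier results of these data known. Of 32 tested genes on a list of further chondrocyte genes, 30 had a log2 fold change below 0 by imiquimod, 15 lower and 2 higher at an unadjusted p under 0.05, with a median of -0.57 and no call. By XYF 10 were higher and 3 lower by the same rule, with a median of 0.52. The mean centred log2 CPM of that list and of the cartilage genes had r = 0.985 over the 9 libraries. Its single tested genes ran from -0.87 for Ccn3 to 0.985 for Wif1. Wif1 (a Wnt inhibitor), Fgfr3 (a growth factor receptor) and Snorc (a chondrocyte proteoglycan), picked from the list after its values were seen, had log2 fold changes of -1.77, -1.30 and -1.86 by imiquimod and 1.26, 1.61 and 1.51 by XYF. Other genes of the list went the other way. The 2 higher by imiquimod were Sfrp5 (0.88) and Ccn3 (0.48), and the 3 lower by XYF were Ptch1 (-0.85), Gli1 (-0.65) and Ccn3 (-0.56). Among 25 tested genes for sugar chains and sulphation, 8 were lower and 1 was higher by imiquimod at an unadjusted p under 0.05, with a median of -0.24. These genes are used by many cell types, and their list had r = 0.32 with the cartilage genes. Of 14 matrix proteases and inhibitors, 5 were higher and 2 lower by imiquimod, 1 of them called (Timp1).

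Markers of other tissues in the ear did not all follow the cartilage genes. The 17 tested dermal fibroblast genes summed to 19836, 28467 and 30907 CPM in VAS+H2O, 13346, 21074 and 20437 CPM in IMQ+H2O and 14345, 15161 and 22308 CPM in IMQ+XYF. Of these, 8 were lower by imiquimod at an unadjusted p under 0.05 and 2, Col6a2 and Col6a3, were higher by XYF. Their mean had r = 0.23 with the cartilage genes, but single genes ran from -0.50 for Pdgfra to 0.88 for Col6a3. Col6a2 (0.87), Col5a2 (0.82) and Col6a1 (0.80) were also close to the cartilage genes. The 8 tendon and perichondrium genes summed to 2302, 3739.8 and 2959.6 CPM in VAS+H2O, 1789.8, 2440.5 and 1934 CPM in IMQ+H2O and 1515, 1759 and 2008 CPM in IMQ+XYF, with 4 lower by imiquimod and none higher by XYF. The mean of the tendon and perichondrium list had r = 0.64 with the cartilage genes, and its single genes ran from -0.17 for Postn to 0.93 for Ogn. Bone and hypertrophy genes were few and low, summing to between 41.3 and 103 CPM, and of the 6 tested, 2 were higher by imiquimod.

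Other lists differed between groups or libraries too, and not all in the order of the cartilage genes. The r of the list mean with the cartilage genes was -0.02 for skeletal muscle, 0.19 for epidermis and 0.43 for hair follicle. It was -0.71 for neutrophil, -0.80 for macrophage and -0.72 for adipocyte genes. The 13 skeletal muscle genes summed to 2192, 3348 and 735 CPM in VAS+H2O, 2931, 1582 and 3242 CPM in IMQ+H2O and 183, 1137 and 802 CPM in IMQ+XYF, and all 13 had log2 fold changes below 0 by XYF, 9 at an unadjusted p under 0.05. The 9 epidermis genes summed to 4582, 6526 and 3652 CPM in VAS+H2O, 2147, 3237 and 2521 CPM in IMQ+H2O and 14630.5, 3809 and 4973 CPM in IMQ+XYF, highest in XYF replicate 1, the XYF library with the lowest cartilage RNA. Muscle and epidermis sums therefore also differed between libraries by several times. Like most cartilage genes, 8 of the 9 epidermis genes had a log2 fold change below 0 by imiquimod (median -1.25). Of these, 2 were at an unadjusted p under 0.05. By XYF 8 were above 0, 6 of them at an unadjusted p under 0.05, with a median of 1.38. Of 7 neutrophil genes, 5 were called higher by imiquimod, and their sum went from 6.64 to 22.3 CPM in VAS+H2O and from 210.2 to 666 CPM in IMQ+H2O. Of 10 hair follicle genes, 6 were called lower by imiquimod (Krt27, Krt33a, Msx2, Krt81, Krt31 and Krt35). Of 8 macrophage genes 4 were higher by imiquimod and 4 lower by XYF at an unadjusted p under 0.05, and of 10 adipocyte genes 2 were higher by imiquimod and 2 lower by XYF. The part of these differences in the cartilage values was not tested.

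**Figure D5:**
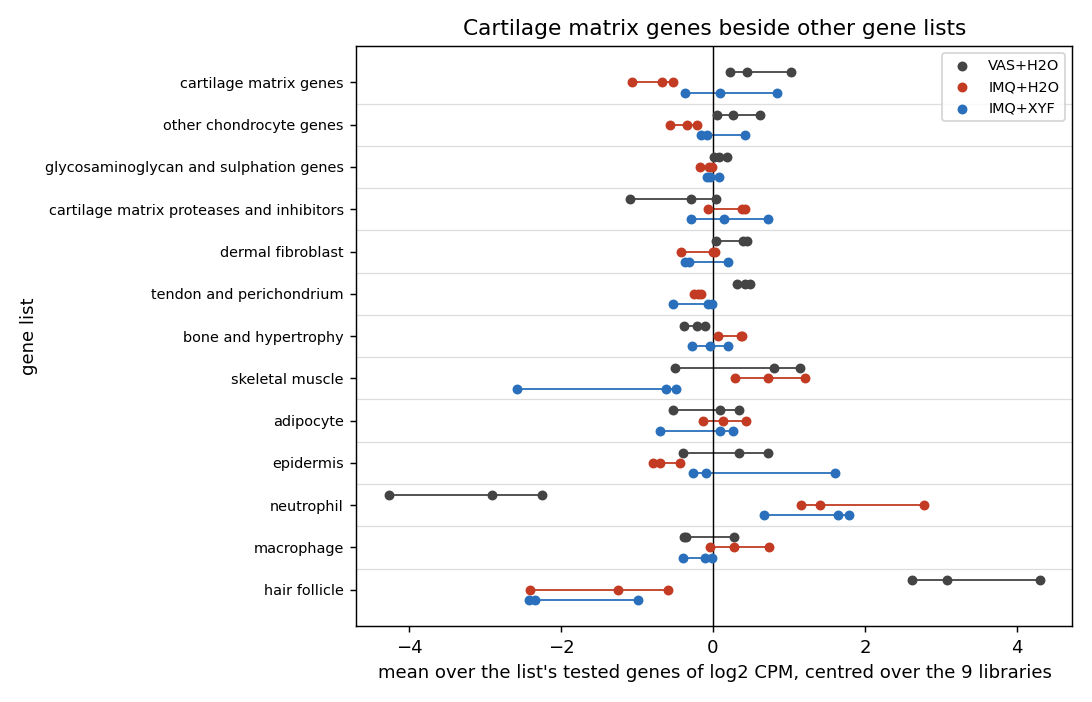
Mean over each list's tested genes of log2 CPM, centred per gene over the 9 libraries, for the cartilage genes (top) and 12 other lists, with a point per library and a line over each group's range. The cartilage genes and the further chondrocyte genes had the same order of groups. By group means, so did the glycosaminoglycan and sulphation list and, by a narrow margin, the tendon and perichondrium list. The epidermis list was lowest in IMQ+H2O. The neutrophil list was higher and the hair follicle list lower in both imiquimod groups, and the skeletal muscle list was lowest in IMQ+XYF.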

How the data were processed

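The deposited table held raw read counts per gene for 9 libraries. The authors aligned reads with STAR 2.5 to GRCm38 (Ensembl release 90) and, per the labels, made strand-specific libraries, whereas the methods name a TruSeq v2 kit. The counter, its use of strand and its treatment of multi-mapped reads are not given in the sources used here. The labels name no animal per library. Counts were filtered with filterByExpr, scaled by TMM and fitted with edgeR 4.0.16 (R 4.3.3) over all 9 libraries, with 1 coefficient per group. DESeq2 1.42.0 was the alternative tool, and its missing adjusted p-values stayed missing. log2 CPM used a prior count of 2. The fit was tested on simulated data. Exon lengths and overlaps came from a GENCODE annotation of GRCm38. Named were all 35 cartilage genes, the 10 others most like Col2a1, the called genes of the other lists and single genes picked from those lists after their values were seen. A gene that this rule names is not reported here. The genes and lists were chosen with earlier results of these data known. Other normalizations, filters, sample sets, a replicate block and leaving out each library were tried.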

Additional observations from a re-analysis of the deposited data

How the results depend on the processing

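By imiquimod, 4 cartilage genes were called in the edgeR fit, 19 by DESeq2's Wald test, 14 with only the compared groups, and 0 to 13 when 1 library was left out (0 without VAS+H2O replicate 2 or 3 or any imiquimod library). By XYF, DESeq2 called 14 where edgeR called 0. Between IMQ+XYF and VAS+H2O, DESeq2 called 2 and edgeR 0, or 0 to 2 with 1 library left out. With the replicate number as a block, 1 gene was called by imiquimod (Matn4), and calls over all genes went from 223 to 86, from 2 to 0 and from 270 to 54 in the 3 comparisons. The correlation of deviations was -0.18 to 0.12 for libraries of the same number and -0.16 to 0.28 for different numbers, so no pairing was seen. With few libraries this cannot show whether those of the same number shared handling or animals. Over all genes, DESeq2 called 940, 219 and 705 at the same limits, and the fit of only the compared groups called 496 by imiquimod.

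With 1 library left out, the median log2 fold change of the cartilage genes ranged from -1.68 to -1.07 by imiquimod, from 0.71 to 1.37 by XYF and from -0.67 to 0.0025 between IMQ+XYF and VAS+H2O. Directions turned for Prg4 by imiquimod (-0.78 to 1.46, and 0.15 with the replicate block), Epyc by imiquimod (-0.62 to 0.17), and by XYF for Fmod (-0.047 to 0.44), Prg4 (-0.10 to 0.57) and Pth1r (-0.13 to 0.076). None of these was called, and the cause was not tested. For single genes and alternatives, 501 values by imiquimod kept direction and side of the limits, 45 passed them in addition, 28 no longer did and 4 turned. By XYF the counts were 560, 14, 0 and 4. Counts under 30 per library limit Scrg1.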

Other observations

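Called genes of the cartilage-related lists outside the 35 were few. Timp1, an inhibitor of matrix metalloproteases, measured 14.5, 18.9 and 16.3 CPM in VAS+H2O, 94.4, 221 and 217 CPM in IMQ+H2O and 140.1, 91.7 and 358 CPM in IMQ+XYF. Every library that received imiquimod was above the controls, with log2 fold changes against VAS+H2O of 3.42 ± 0.54 in IMQ+H2O and 3.57 ± 0.54 in IMQ+XYF, both called by edgeR. Ptch1, the receptor for hedgehog proteins, measured 37.3, 52.1 and 70.3 CPM in VAS+H2O, 47.3, 47.8 and 44.0 CPM in IMQ+H2O and 27.5, 24.0 and 25.6 CPM in IMQ+XYF. It was called lower in IMQ+XYF than in VAS+H2O (log2 fold change -1.05 ± 0.20), and XYF replicate 2, high in most cartilage genes, was its lowest library. Alpl, an alkaline phosphatase of mineralizing cells that other cells also express, measured 3.15, 3.94 and 5.89 CPM in VAS+H2O, 15.3, 17.9 and 30.4 CPM in IMQ+H2O and 19.9, 12.4 and 38.8 CPM in IMQ+XYF. It was called higher in IMQ+XYF than in VAS+H2O (log2 fold change 2.45 ± 0.46). IMQ+H2O was nearly as high against VAS+H2O (2.29 ± 0.46) but just missed the limit (edgeR adjusted p = 0.0528). Between IMQ+XYF and IMQ+H2O the log2 fold change of Alpl was 0.16 ± 0.43.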
